A study of Mus musculus with 17 samples.

Results

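Chemokines, the small secreted proteins that steer leukocytes, and their receptors were read from RNA-seq libraries of mouse bile duct. The genes were taken by name: protein-coding rows of the table called Ccl, Cxcl, Xcl or Cx3cl with a number, the receptor names Ccr, Cxcr, Xcr, Cx3cr or Ackr with a number, and Ppbp and Pf4. The rule gave 61 genes, 39 ligands and 22 receptors, of 43346 genes in the table. The libraries belong to a mouse study of extrahepatic cholangiocarcinoma, which arises in the ducts that carry bile from the liver to the gut. All 17 samples carry the same label, bile duct, with total RNA as the molecule, and the labels give no genotype, strain, treatment, age or sex. The table's columns are named by 6 codes, R62848, R62850, R63289, R63496 and R63500 with 3 libraries each and R63494 with 2, and no source used here gives what a code stands for. Libraries of the same code were therefore compared as sets that share a name, not as conditions.

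Chemokines fall into families named for the spacing of their first cysteines (CXC, CC, XC and CX3C), and they act on G protein-coupled receptors of leukocytes. CXC ligands with a Glu-Leu-Arg (ELR) motif attract neutrophils through Cxcr2, while Ccl2 and its relatives attract monocytes through Ccr2. Other members guide lymphocytes to lymphoid tissue and mucosa, and atypical receptors bind chemokines without G protein signalling. In the biliary tract, duct epithelium is known as a source of neutrophil-attracting and mucosal chemokines.

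Library totals ran between 16400556 and 24152314 counts, and the members took 0.159% to 0.362% of them. The 10 cholangiocyte markers (keratins, Epcam, Sox9 and others) summed to 6403 to 9159.6 CPM (counts scaled to library size), and the 5 hepatocyte markers to 6.19 to 51.4 CPM. Markers of duct epithelium were thus detected in every library. The 3 R62850 libraries stood apart: their pancreatic acinar markers summed to 6132, 24351 and 139340.0 CPM, against 40.6 to 159 CPM in the other libraries. The part of this acinar RNA in the values below was not tested. Nothing states that libraries came from separate animals, so p-values measure the spread between these libraries, which may be technical. In bulk tissue, fewer cells of a type and less RNA per cell cannot be told apart.

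Cxcl5, an ELR ligand, was the most abundant chemokine mRNA by a wide margin, with a median of 852.8 RPKM (CPM per kilobase of gene length, a level that allows genes of different length to be compared). It made up 50.4% to 73.1% of the summed RPKM of all 39 ligands, with a median share of 62.7%. The next ligands were Ccl21a (75.7 RPKM), a lymphatic and lymphoid chemokine, Cxcl16 (54.3 RPKM) and Cx3cl1 (36.9 RPKM), which are both membrane-anchored, and Ccl28 (48.9 RPKM), a mucosal epithelial chemokine. Pf4, a product of platelets and megakaryocytes, had 42.2 RPKM, Cxcl1 36.4 RPKM, Ccl20 31.5 RPKM, Cxcl2 23.1 RPKM, Ccl8 18.9 RPKM, Cxcl3 14.9 RPKM and Cxcl12 13.9 RPKM. Of the 39 ligands, 14 had a median of 10 to 100 RPKM, 14 had 1 to 10 RPKM and 10 had under 1 RPKM. Cxcl5 did not overlap the next ligand in any library, whereas each further pair of neighbours in this order had overlapping ranges over libraries.

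Receptor mRNA was lower: no receptor reached 100 RPKM, 3 lay between 10 and 100 RPKM, 10 between 1 and 10 RPKM and 9 under 1 RPKM. Cxcr4 led with 31.3 RPKM, followed by Cxcr2 (20.1 RPKM), the fractalkine receptor Cx3cr1 (11.3 RPKM), Ccr1 (7.40 RPKM), Cxcr6 (6.44 RPKM), Ackr3 (4.90 RPKM) and Ccr2 (4.03 RPKM). Neighbours in this order overlapped over libraries. Ligand and receptor medians were unequal in several pairs. Ccl20 had 31.5 RPKM and its receptor Ccr6 1.43 RPKM, Ccl28 had 48.9 RPKM and Ccr10 1.43 RPKM, and Ccl21a had 75.7 RPKM and Ccr7 0.958 RPKM. Cxcl12 and Cxcr4 had the reverse order, with 13.9 and 31.3 RPKM. The monocyte ligands Ccl2, Ccl7 and Ccl12 had medians of 1.68, 1.81 and 3.58 RPKM, below the 4.03 RPKM of their receptor Ccr2. Each overlapped Ccr2 over libraries. In R63500, Ccl7 had 7.43 to 20.6 RPKM and Ccl12 6.20 to 8.66 RPKM, against 4.48 to 5.86 RPKM for Ccr2.

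**Figure D1:**
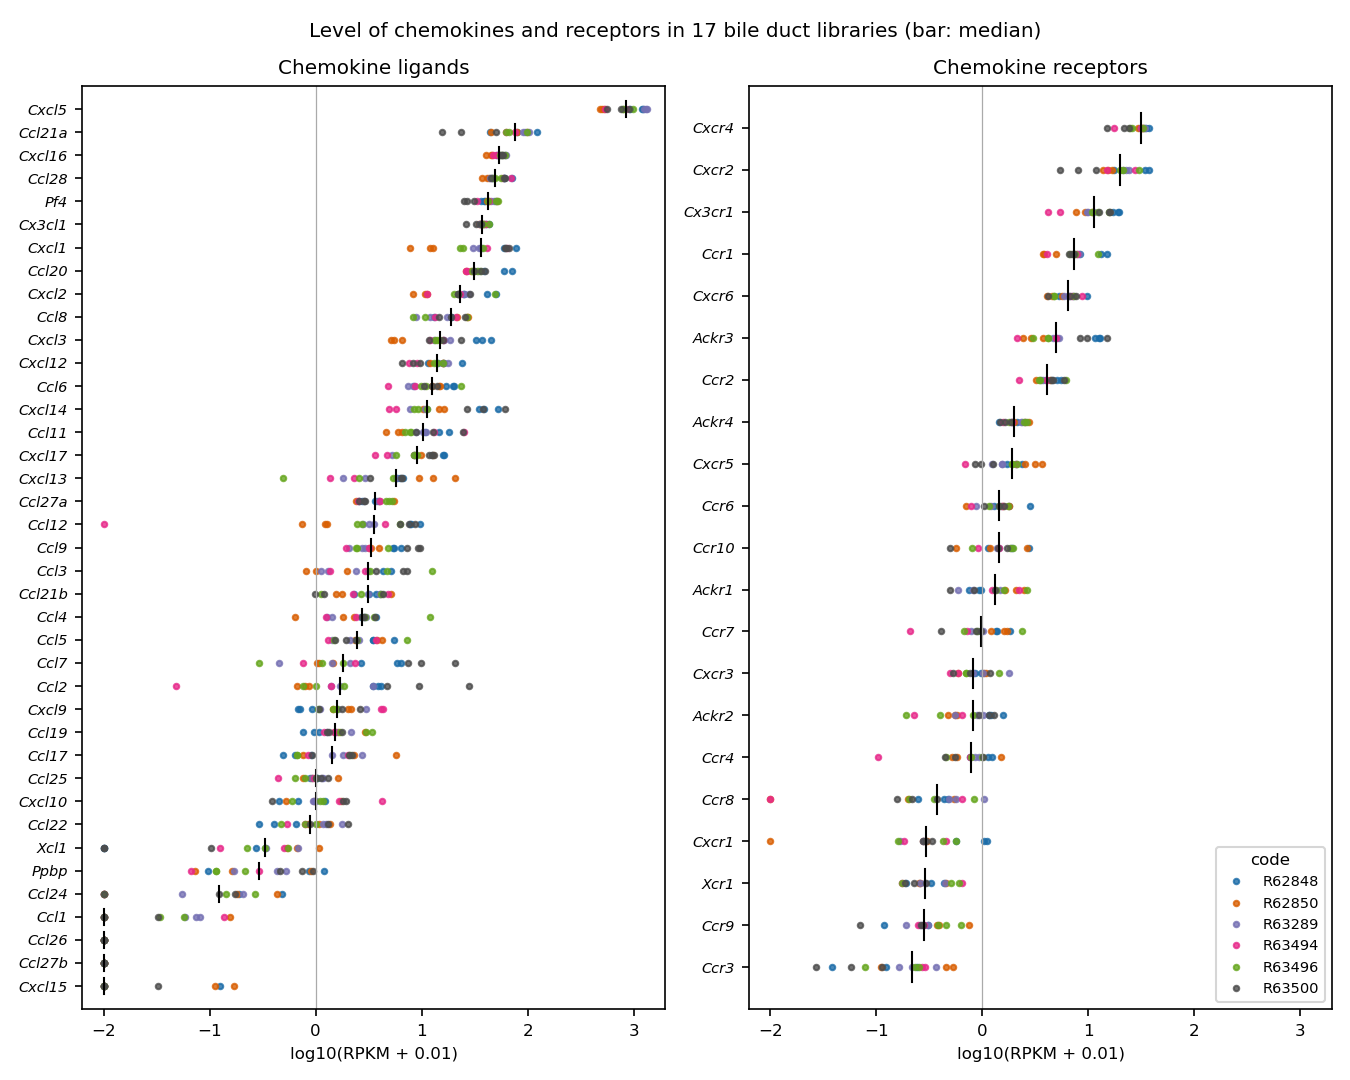
Level of 39 ligands (left) and 21 receptors (right) in 17 libraries; the x axis is log10 of RPKM plus 0.01, points are libraries coloured by code and the bar is the median. Cxcl5, at a median of 852.8 RPKM, lies right of every other member, while 10 ligands and 9 receptors have medians under 1 RPKM.

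In all, 42 members had a median of at least 1 RPKM, and 49 of the 61 passed the filter on low counts. The 12 that were not tested were Ccl1, Ccl17, Ccl21b, Ccl24, Ccl26, Ccl27b, Ccr3, Ccr8, Cxcl15, Cxcr1, Ppbp and Xcl1, each at or below 2.93 CPM in every library. Ccl26 and Ccl27b had 0 of 316263555 counts over all libraries, which allows up to 0.00949 CPM, for counting error only. Ccl27b shares a stretch of chromosome 4 with Ccl27a. How reads that match more than 1 gene were counted is not given, so its 0 counts are uncertain. Per kilobase, Ccl17 (513 bases) and Ccl21b (402 bases) had medians of 1.43 and 3.09 RPKM.

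Whether libraries of a code resembled each other was tested with edgeR's quasi-likelihood F test of the 6 codes over 15795 genes, with Benjamini-Hochberg adjustment over all of them. At an adjusted p below 0.05, 32 of the 49 tested members (65.3%) differed between codes, beside 48.7% of all tested genes. By role, all 4 tested ELR ligands, 9 of 11 inflammatory CC ligands and 7 of 10 homeostatic and mucosal ligands were among them. Receptors were called less often by count, with 9 of 19 against 23 of 30 ligands, and that difference was not tested. Of 8 tested CC receptors 2 differed, with 3 of 5 CXC receptors and 3 of 4 atypical receptors. The median share of log2 CPM variance that lay between codes was 71.4% for members and 61.4% for all tested genes. The spread within codes was also wider for members, with a median SD of 0.39 log2 units against 0.19 for all tested genes, at a median level of 9.67 CPM against 24.6 CPM. The median difference between the highest and lowest code mean was 1.59 log2 units for members and 0.58 for all tested genes.

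For 10 tested members (20.4%) all libraries of 1 code lay above all other libraries, beside 13.6% of all tested genes. For 13 members (26.5%) all libraries of 1 code lay below all others, beside 12.6% of all tested genes. R62850 lay lowest for 6 members, Cxcl1, Cxcl3, Cxcl5, Cxcl16, Ccl11 and Ccl28 (1.98% of all tested genes), and highest for Cxcl13 and Cxcr5 (2.41%). R63500 lay highest for 4 members, among them Ccl2, Ccl7 and Ccl9 (2.32% of all tested genes), and lowest for Cxcr2 and Pf4 (1.5%). R62848 lay highest for Cxcl3 and Cx3cr1 (2.87% of all tested genes) and lowest for Cxcl9 and Ccl19 (1.86%). R63494 lay lowest for Cx3cr1, Cxcl14 and Cxcl17 (5.62% of all tested genes) and highest for Cxcl9 (4.43%). R63289 lay highest for Cxcl5 (0.734% of all tested genes) and lowest for 0 members (0.481%), and R63496 lay highest (0.823%) or lowest (1.13%) for 0 members.

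**Figure D2:**
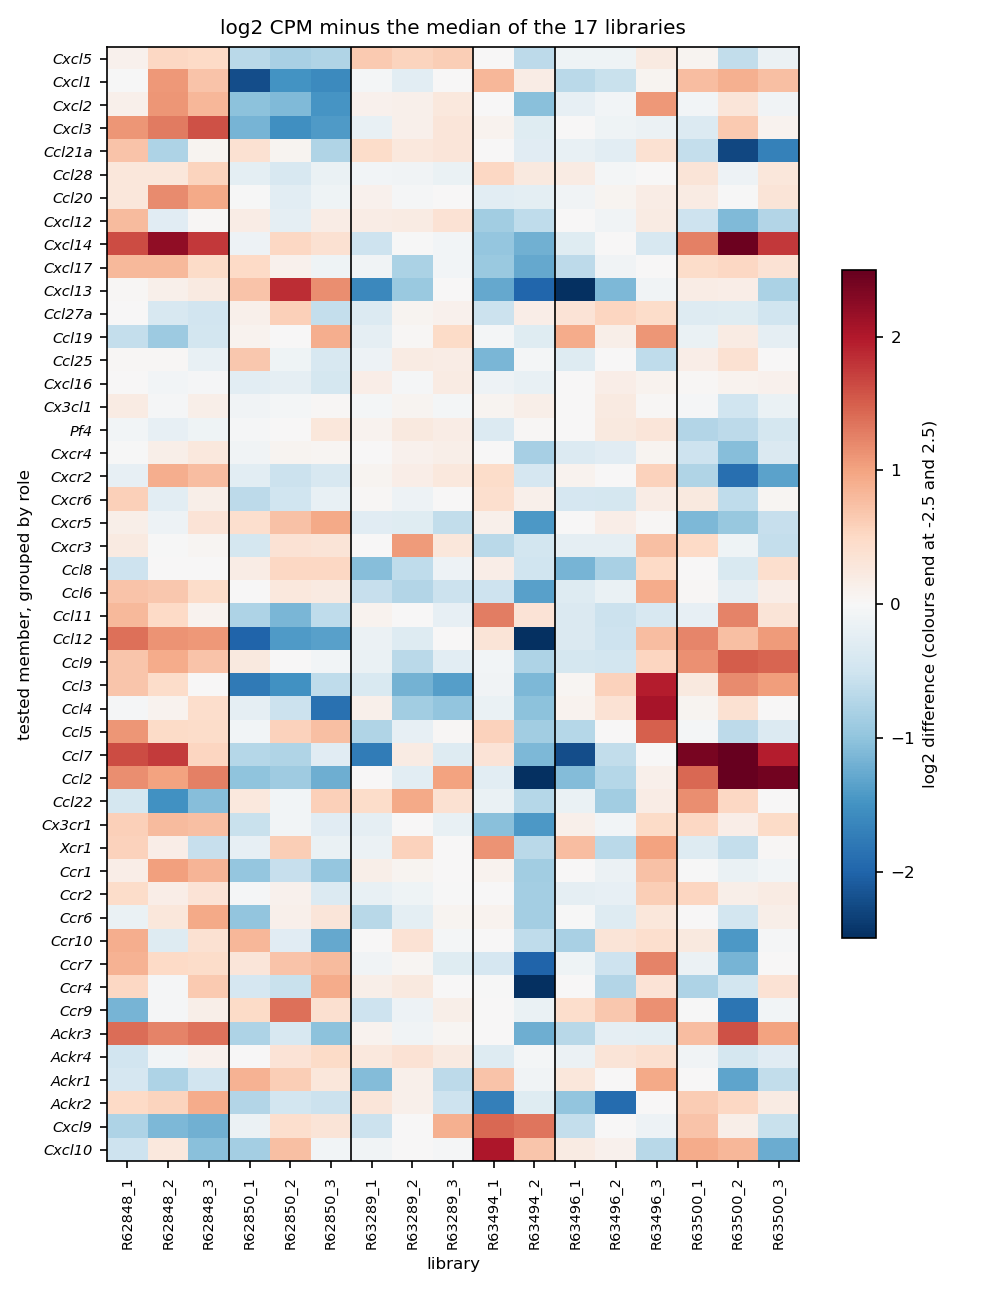
Log2 CPM of 48 tested members minus each gene's median over the 17 libraries, with rows grouped by role and black lines between codes; red is above and blue below the median, with colours ending at 2.5 log2 units. Rows of the ELR ligands Cxcl1, Cxcl3 and Cxcl5 are blue in all 3 R62850 libraries, and Ccl2 and Ccl7 are red in all 3 R63500 libraries.

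The ELR ligands lie side by side on chromosome 5 (mm10), in a stretch from 90759299 to 90905909 that holds Cxcl5, Ppbp, Pf4, Cxcl3, Cxcl15, Cxcl1 and Cxcl2. Of the members lowest in R62850, Cxcl1, Cxcl3 and Ccl28 have a RefSeq promoter entry, and the 100 bases before their starts are shown with those of Cxcl2, which overlapped other codes. Cxcl5, Cxcl16 and Ccl11 are named only. They are RefSeq sequences of GRCm38.p6 (the mm10 assembly), plus strand: chr5:90891145-90891244 for Cxcl1, chr5:90903799-90903898 for Cxcl2, chr5:90786001-90786100 for Cxcl3 and chr13:119623719-119623818 for Ccl28. Capitals mark GGGAATTTCCC, the longest run of letters shared by the windows of Cxcl1, Cxcl2 and Cxcl3, which has the form of the kappa-B sites that NF-kappaB proteins are known to bind.
Cxcl1: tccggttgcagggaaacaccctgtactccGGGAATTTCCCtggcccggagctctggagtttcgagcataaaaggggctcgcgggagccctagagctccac
Cxcl2: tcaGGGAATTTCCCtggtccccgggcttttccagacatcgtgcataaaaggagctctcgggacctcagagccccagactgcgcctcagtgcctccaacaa
Cxcl3: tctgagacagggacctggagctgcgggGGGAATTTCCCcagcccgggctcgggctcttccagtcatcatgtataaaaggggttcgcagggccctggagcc
Ccl28: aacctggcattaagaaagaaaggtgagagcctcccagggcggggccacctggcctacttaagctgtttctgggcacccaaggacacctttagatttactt
This run of 11 bases began 71, 97 and 73 bases before the RefSeq starts of Cxcl1, Cxcl2 and Cxcl3, and the next longest shared run had 8 bases. Searched on both strands of the 250 bases before each start, it was found in 14 of 32851 promoters (0.0426%). Of the 61 members, 47 matched a promoter, and the run was found in those of Cxcl1, Cxcl2 and Cxcl3, from which it was taken, and not in that of Ccl28. The run was found by comparing chosen genes, other forms of the site were not searched, and no link to the R62850 values was tested. A match in letters is a description and not a measured binding site.

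Cxcl5 (chromosome 5, 90759299 to 90761625) attracts neutrophils and is made by epithelium. It had 2213, 2087 and 2148 CPM in R63289, 1529, 2024 and 2001 CPM in R62848, 1302, 1309 and 1652 CPM in R63496, and 1489, 925 and 1269 CPM in R63500. The R63494 libraries had 1411 and 892 CPM, and R62850 had 879.8, 803 and 836 CPM. All R63289 libraries were above and all R62850 libraries below every other library, a 2.76-fold range from the highest to the lowest library. The codes differed (edgeR adjusted p = 8.90e-05), and 84.4% of the log2 variance lay between them.

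Cxcl1 (chromosome 5, 90891241 to 90893115) followed a partly different order. It had 59.7, 64.1 and 58.3 CPM in R63500, 34.5, 74.0 and 57.0 CPM in R62848, 61.5 and 39.5 CPM in R63494, 33.5, 29.0 and 34.7 CPM in R63289, 21.7, 23.6 and 36.4 CPM in R63496, and 7.38, 12.3 and 11.4 CPM in R62850. The R62850 libraries did not overlap the rest, and the highest and lowest code means were 2.57 log2 units apart (within-code SD 0.37, edgeR adjusted p = 0.000124).

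Cxcl3 showed the clearest order of the ELR genes, with 32.6, 37.3 and 45.6 CPM in R62848, 6.65, 5.13 and 5.56 CPM in R62850, and 11.9 to 23.7 CPM elsewhere. No library of those codes overlapped the others, and the codes differed by 2.71 log2 units (edgeR adjusted p = 3.11e-07). Cxcl2 had 26.5, 52.7 and 43.3 CPM in R62848 and 11.9, 11.3 and 8.71 CPM in R62850, with 11.7 to 51.9 CPM elsewhere. R62850 overlapped R63494_2 for Cxcl2, and its edgeR adjusted p of 0.0118 was 0.237 without R62850. Ppbp, another ligand of this stretch that platelets store, stayed at or below 1.29 CPM, and Cxcl15, known from lung epithelium, at or below 0.338 CPM.

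Cxcr2, the neutrophil receptor for these ligands, had its lowest mean in R63500, whereas Cxcl1, Cxcl2, Cxcl3 and Cxcl5 had theirs in R62850. It had 36.4, 16.5 and 24.3 CPM in R63500, 50.7, 42.1 and 46.6 CPM in R62850, 53.4, 115 and 105 CPM in R62848, 64.5, 69.2 and 74.0 CPM in R63289, 65.4, 61.3 and 91.6 CPM in R63496, and 84.6 and 45.5 CPM in R63494. The R63500 libraries were below all others (edgeR adjusted p = 0.0110, and 0.173 without R63500), in the code where Cxcl1 had its highest mean. The summed neutrophil markers were also lowest in R63500, while Mmp8 and Il1r2 had their lowest mean in R62850 and Retnlg in R63494. Of the 10 markers, 9 were tested and all 9 differed between codes, beside 48.7% of all tested genes. Their summed level was 283 to 500.0 CPM in R63500, 640.0 to 716 CPM in R62850, 566 to 885 CPM in R63494, 1147 to 1266 CPM in R63289, 1055 to 1598 CPM in R63496 and 968 to 1732 CPM in R62848. S100a8 alone had 70.0 to 469 CPM, while Ly6g had 0 to 3.49 CPM and was not tested. Their part in the Cxcr2 values was not tested.

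**Figure D3:**
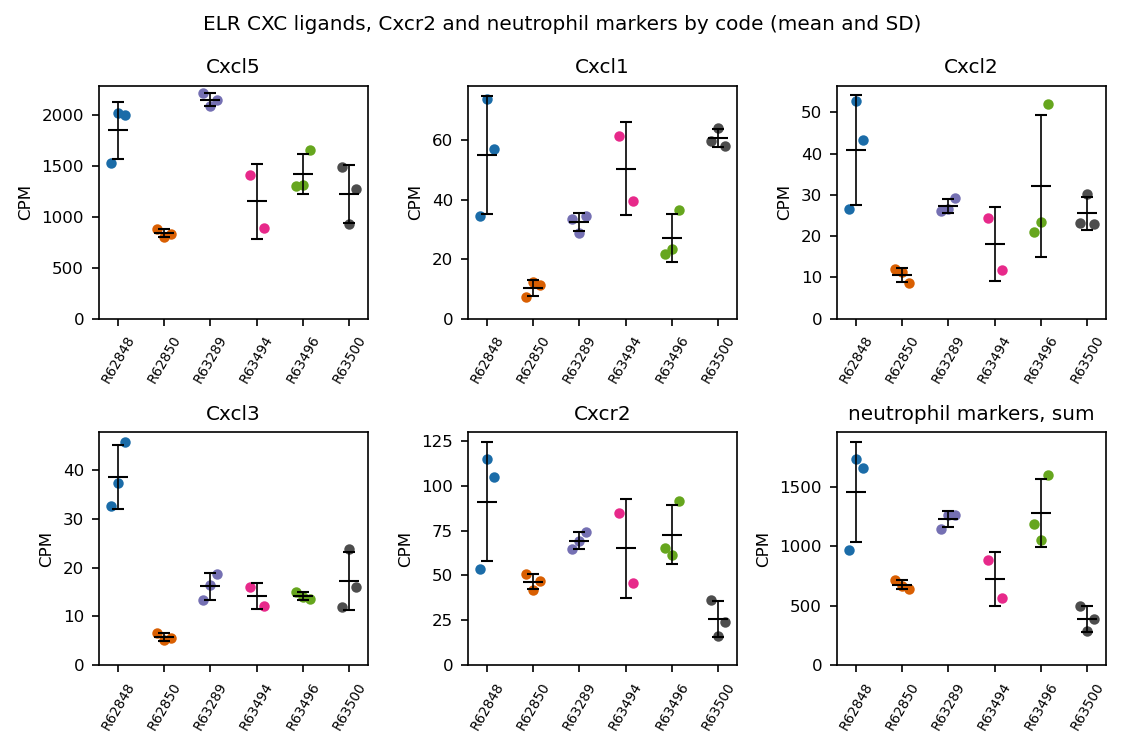
CPM of 4 ELR ligands, Cxcr2 and the summed neutrophil markers by code; points are libraries, and black marks are the mean and SD of a code (n = 3, and 2 for R63494). R62850 is lowest for Cxcl1, Cxcl3 and Cxcl5, whereas R63500, with 16.5 to 36.4 CPM, is lowest for Cxcr2.

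The monocyte ligands Ccl2 and Ccl7 were highest in R63500. Ccl2 (chromosome 11, 82035571 to 82037453) had 5.38, 31.6 and 10.7 CPM in R63500, 4.39, 3.96 and 4.71 CPM in R62848, 1.92, 1.57 and 3.95 CPM in R63289, 0.847, 1.13 and 2.12 CPM in R63496, 0.902, 0.982 and 0.755 CPM in R62850, and 1.57 and 0.0433 CPM in R63494. All R63500 libraries lay above the rest, though they spread widely among themselves, and R63494_2 held a single read. The code means differed by 4.61 log2 units (15.9 ± 13.8 CPM in R63500, SD, n = 3), which was the largest difference among the called members (edgeR adjusted p = 0.000973).

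Ccl7, a neighbour of Ccl2 that also acts on Ccr2, had 7.95, 16.5 and 5.95 CPM in R63500, against 0.226 to 5.15 CPM elsewhere, with no overlap (edgeR adjusted p = 0.000104). Ccl12, another Ccr2 ligand of mouse, overlapped between R63500 and R62848. It had 4.65, 3.33 and 4.11 CPM there, 5.13, 4.28 and 4.16 CPM in R62848 and 0 to 3.34 CPM elsewhere. Its edgeR adjusted p of 0.0172 was 0.0915 with no filter on low counts, 0.0543 without R62850_1 and 0.164 without R62850. Ccr2 itself, at 14.3 to 39.6 CPM, did not pass the test (edgeR adjusted p = 0.132), but did without R63494_1 (0.0247) or without R63496_3 (0.0166).

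Ccl9, a Ccr1 ligand of rodents, had 22.4, 29.2 and 27.8 CPM in R63500 and 5.85 to 19.4 CPM elsewhere (edgeR adjusted p = 2.02e-05). For Ccl9, as for Ccl2 and Ccl7, R63500 stood above all other libraries. The 10 macrophage and monocyte markers were all called, beside 48.7% of all tested genes. They summed to 1241 to 1557 CPM in R63500, 1246 to 1299.5 CPM in R62848 and 1037 to 1513 CPM in R63496. The sum was 1001 to 1157 CPM in R62850, 994 to 1059 CPM in R63289 and 665 to 853 CPM in R63494. The R63500 sums overlapped those of R62848 and R63496 and lay above those of R62850, R63289 and R63494. Lyz2, the largest part of the sum at 297 to 766 CPM, had its highest mean in R63500, as did Adgre1. Csf1r, Mrc1, C1qa, C1qb, Ly6c2 and Ms4a7 had theirs in R62848, and Cd163 in R62850. The part of the macrophage and monocyte markers in these results was not tested.

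Ccr1, a receptor of neutrophils and monocytes, had its highest mean in R62848, with 23.6, 42.6 and 37.7 CPM. Its lowest mean was in R62850, with 10.7, 14 and 10.6 CPM (edgeR adjusted p = 0.00268, and 0.0702 without R62850). The other codes had 11.5 to 34.8 CPM and overlapped both. Ccl3, which attracts monocytes and T cells, had 9.64 CPM in R63496_3 and 0.620 to 5.53 CPM in the other libraries (edgeR adjusted p = 0.00147). Ccl4, Ccl5 and Ccl6 also had their highest value in R63496_3, at 7.85, 6.91 and 42.6 CPM (edgeR adjusted p = 0.0247, 0.220 and 0.00451). In that library macrophage markers summed to 1513 CPM and B and plasma cell markers to 10951 CPM. The other 2 R63496 libraries had 1037 to 1107 and 4179 to 4325 CPM. Neutrophil markers summed to 1598 CPM in R63496_3, against 1055 and 1188 CPM in those 2 libraries. R63500_1 had a higher macrophage sum, 1557 CPM, with 2.86 CPM of Ccl3 and 1.89 CPM of Ccl4. The part of these markers in the R63496_3 values was not tested. Ccl8, a monocyte and lymphocyte attractant, did not pass (4.23 to 13.9 CPM, edgeR adjusted p = 0.244) but did without R63496_3 (0.00731). Ccl11, an eosinophil attractant, was lowest in R62850, with 6.48, 4.97 and 7.13 CPM against 7.58 to 27.2 CPM elsewhere (edgeR adjusted p = 0.00251).

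Cxcl14 and Ackr3 were both high in R63500 and R62848, the codes with the highest sum of fibroblast markers. Cxcl14, made by stroma and epithelium, had 49.1, 113 and 69.9 CPM in R63500 and 64.0, 96.2 and 70.2 CPM in R62848. It had 10.5 and 8.88 CPM in R63494, below all others, and 14.3 to 29.5 CPM in the other 3 codes (2.95 log2 units between code means, edgeR adjusted p = 7.23e-06). Libraries of R63500 and R62848 together lay above the remaining 4 codes, a pair chosen once the values were known. The share of all tested genes with that pattern was not counted, here or for Ackr3. Ackr3, the atypical receptor that scavenges Cxcl12, had 28.2, 50.0 and 32.9 CPM in R63500, 43.7, 38.9 and 41.9 CPM in R62848 and 7.02 to 17.5 CPM elsewhere (edgeR adjusted p = 1.32e-05).

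Of the fibroblast markers, 8 of 8 were called, beside 48.7% of all tested genes. They summed to 9573 to 11700.2 CPM in R63500 and 10131 to 10822 CPM in R62848. The sum was 2682 to 2959 CPM in R63494 and 4387 to 6430.3 CPM in the remaining codes. Col1a1, Col1a2, Col3a1, Pdgfra and Pi16 were higher in every R63500 and R62848 library than in the rest. Dcn, Lum and Dpt were not, with Dcn at 587 to 599.9 CPM in R63500 and 665 to 778 CPM in R62850. The 7 blood endothelial markers, of which 5 were called (71.4%, beside the same 48.7%), were also high in both codes. They summed to 419 to 487 CPM in R62848, 309 to 392 CPM in R63500 and 218 to 336 CPM elsewhere. Their sums overlapped between R63500 and R62850. The part of either marker list in the Cxcl14 and Ackr3 values was not tested. Cxcl12, which stromal cells produce in many tissues, had 79.5, 53.1 and 68.5 CPM in R63500 and 62.0 and 73.7 CPM in R63494. It had 93.9 to 197 CPM elsewhere (edgeR adjusted p = 0.00682, and 0.0509 without R63500). The share of all tested genes that set this pair of codes apart was not counted either. Cxcr4, the signalling receptor of Cxcl12, had 39.2, 27.1 and 43.7 CPM in R63500 and 31.9 to 68.3 CPM elsewhere, with overlap (edgeR adjusted p = 0.0196). That p was 0.0904 with no filter on low counts, 0.0530 without R62848 and 0.173 without R63500.

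**Figure D4:**
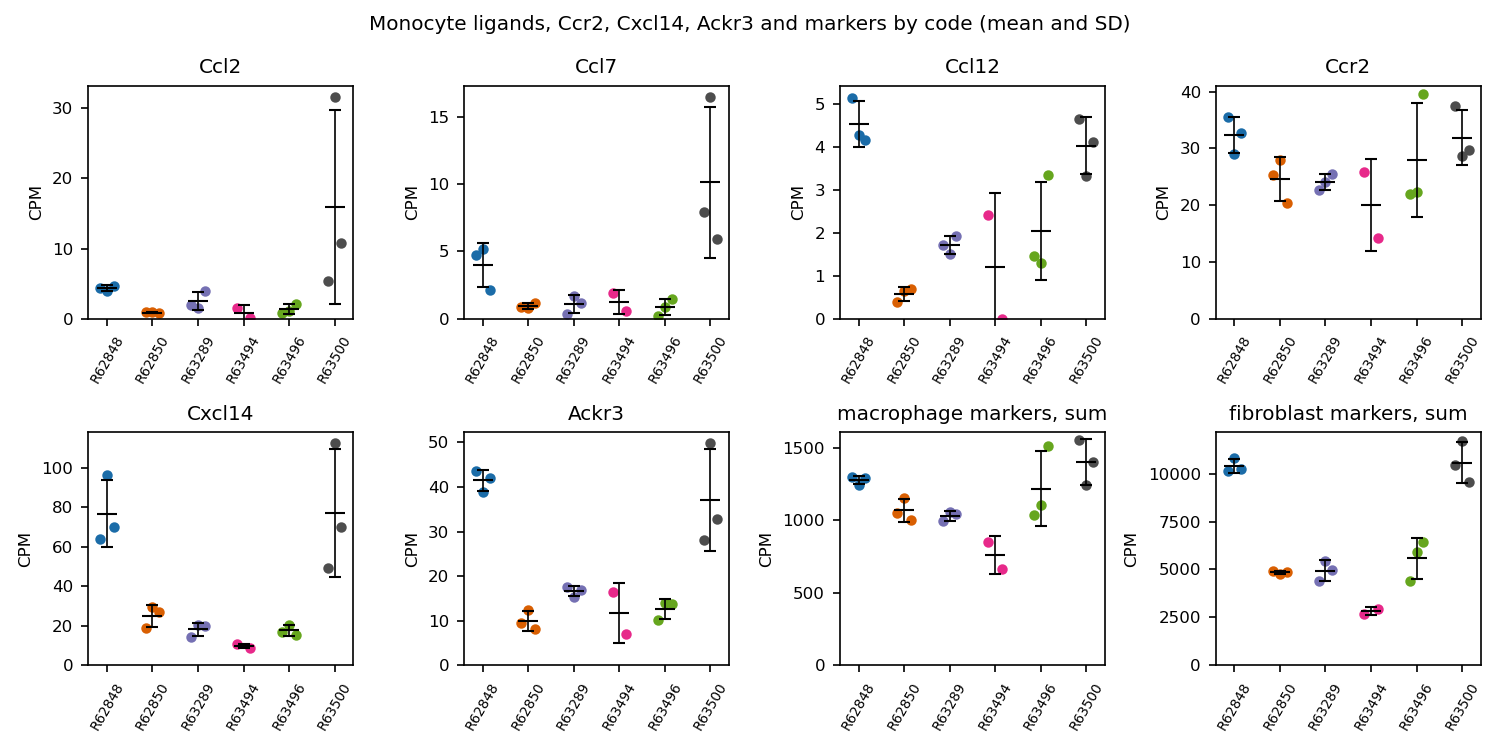
CPM of Ccl2, Ccl7, Ccl12, Ccr2, Cxcl14, Ackr3 and the summed macrophage and fibroblast markers by code; points are libraries, and black marks are the mean and SD of a code (n = 3, and 2 for R63494). Ccl2 and Ccl7 are highest in R63500, whereas Cxcl14, Ackr3 and the fibroblast sum are high in both R62848 and R63500.

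Cx3cr1, the fractalkine receptor of monocytes and macrophages, had 63.9, 72.7 and 71.2 CPM in R62848, above all others, and 20.3 and 15.6 CPM in R63494, below all others. The other 4 codes had 28.7 to 60.4 CPM (edgeR adjusted p = 8.39e-07). Its ligand Cx3cl1 varied less, at 97.4 to 159 CPM, and did not pass the test (edgeR adjusted p = 0.0763). Cx3cl1 was called with no filter on low counts (0.0310), with DESeq2 (0.0434) and without R63500_1 (0.0287). Cxcl16, the other membrane-anchored ligand, had 136, 139.7 and 121 CPM in R62850 and 144 to 189.7 CPM elsewhere, with no overlap (edgeR adjusted p = 0.00142, and 0.0596 without R62850). Cxcr6, its receptor on T and NKT cells, did not pass (7.66 to 18.5 CPM, edgeR adjusted p = 0.164). Exons of Cxcl16 and the opposite-strand gene Zmynd15 share 552 bases, and those of Cx3cr1 and Gm33858 share 78, so some of these reads may belong to the other gene.

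Cxcl13, the B cell attractant of lymphoid follicles, was highest in R62850, with 11, 24.3 and 15 CPM against 0.565 to 7.84 CPM elsewhere. Its receptor Cxcr5 was also highest there, with 7.16, 8.95 and 10.4 CPM against 1.91 to 6.74 CPM. Neither gene overlapped between R62850 and the rest, where 2.41% of all tested genes lay highest. The edgeR adjusted p was 0.0129 for Cxcl13 and 0.00281 for Cxcr5, and that of Cxcl13 was 0.0528 without R62850_2 and 0.208 without R62850. Of the 10 B and plasma cell markers, 7 were tested and 3 called, beside 48.7% of all tested genes. Those 3 (Cd79a, Cd79b and Ighm) had their highest mean in R62850, with 140 to 406 CPM for Ighm. All 3 overlapped other codes through R62850_1, with Ighm at 140 CPM there and 315 CPM in R63496_3. The B cell markers Ms4a1 and Pax5, which were not tested, reached 14.7 and 7.75 CPM in R62850. Ms4a1 had 3.83 CPM in R62850_1 and 5.63 CPM in R63496_3. The summed B and plasma list, which Igha and Jchain dominate, was 5112 to 6564 CPM in R62850 and 2208 to 10951 CPM elsewhere. Exons of Cxcr5 overlap those of Bcl9l by 110 bases.

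The interferon-induced ligands of Cxcr3, a receptor of activated T and NK cells, were low. Cxcl9 had 12.7 and 11.9 CPM in R63494, above all others, 2.68, 2.06 and 1.96 CPM in R62848, below all others, and 3.05 to 8.70 CPM in the remaining codes (edgeR adjusted p = 0.000687). Cxcl10 had its highest value, 6.48 CPM, in R63494_1 and 0.579 to 2.96 CPM in the other libraries, and did not pass (edgeR adjusted p = 0.0694). Cxcr3 had 0.847 to 3.08 CPM and did not pass (edgeR adjusted p = 0.427). The 5 tested T and NK markers, of 10, had edgeR adjusted p between 0.0528 and 0.311, and the list summed to 27.8 to 56.1 CPM.

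Ccl20, which attracts Ccr6-bearing cells to epithelium, had 54.8, 102 and 86.0 CPM in R62848 and 37.0 to 56.3 CPM elsewhere (edgeR adjusted p = 0.000253). R62848_1 overlapped R63500_3, so R62848 did not stand clear of the rest. Ccl28, which attracts IgA plasma cells through Ccr10, had 155, 139 and 162 CPM in R62850 and 164 to 268 CPM elsewhere, with no overlap (edgeR adjusted p = 0.000661). Ccr10, at 0.846 to 4.72 CPM, did not pass (edgeR adjusted p = 0.804). Cxcl17, a mucosal chemokine, had 3.57 and 2.77 CPM in R63494 and 3.95 to 12.3 CPM elsewhere (edgeR adjusted p = 0.000235).

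**Figure D5:**
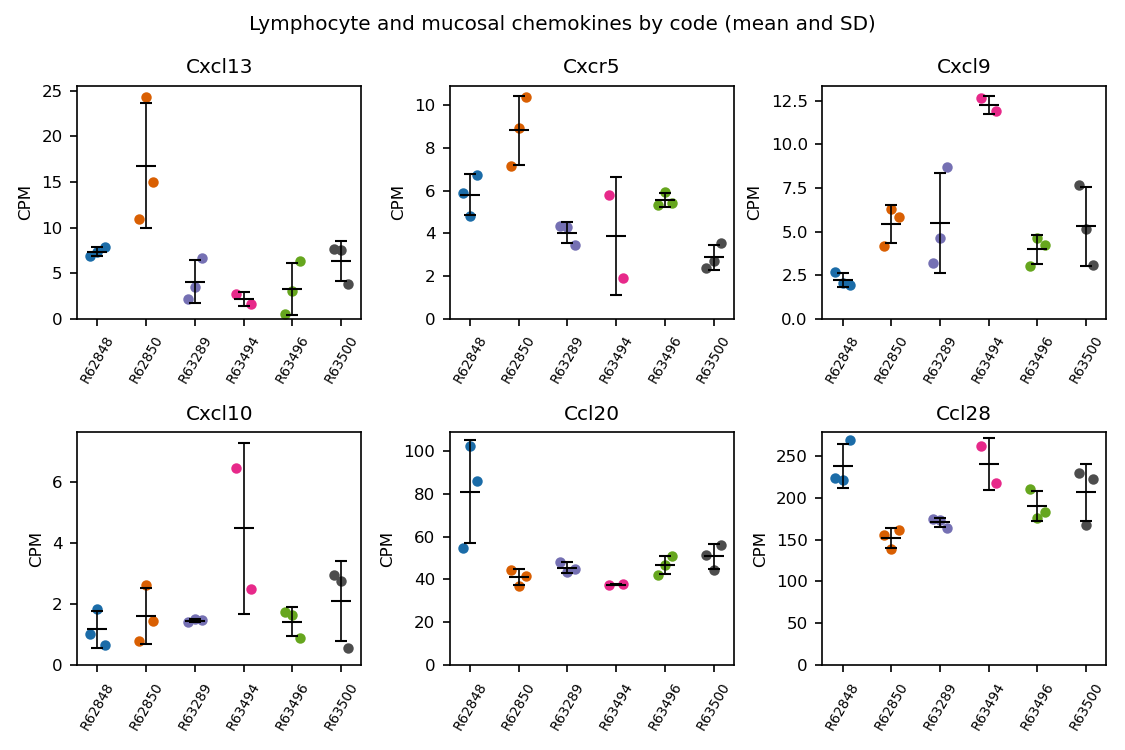
CPM of Cxcl13, Cxcr5, Cxcl9, Cxcl10, Ccl20 and Ccl28 by code; points are libraries, and black marks are the mean and SD of a code (n = 3, and 2 for R63494). R62850 is highest for Cxcl13 and Cxcr5, R63494 for Cxcl9, and Ccl28 is lowest in R62850.

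Ccl21a, which brings Ccr7-bearing cells into lymphatics, had 43.8, 13.6 and 20.4 CPM in R63500 and 38.6 to 107 CPM elsewhere, with overlap. It did not pass the main test (edgeR adjusted p = 0.104), and did with DESeq2 (0.0257), limma-voom (0.0103) or without R63500_1 (0.0294). Ccl21a has near-identical copies on chromosome 4, Ccl21b (0.395 to 2.09 CPM) and Gm13304 (0.902 to 8.06 CPM), so its counts are uncertain. Ccl19, another Ccr7 ligand, stayed at or below 2.95 CPM and was lowest in R62848 (edgeR adjusted p = 0.0388). The pseudogene Ccl19-ps1, also on chromosome 4, had 0 to 5.58 CPM, so the Ccl19 counts are uncertain as well.

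Pf4 (chromosome 5, 90772435 to 90773381) had 14.9, 15.6 and 18.2 CPM in R63500 and 19.6 to 30.6 CPM elsewhere, with no overlap (edgeR adjusted p = 0.000526, and 0.0809 without R63500). The platelet and megakaryocyte markers Itga2b, Gp1ba, Gp9, Gp6 and Treml1 summed to 2.90 to 6.27 CPM, and the 2 that were tested had edgeR adjusted p of 0.0605 and 0.443. In R63500 that sum was 4.85 to 5.21 CPM, within the range of the other libraries.

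Among the other atypical receptors, Ackr1, which binds many chemokines on venules and red cells, and Ackr2, which clears inflammatory CC ligands, differed (edgeR adjusted p = 0.0325 and 0.0159) at levels up to 3.68 and 4.35 CPM. Ackr4, which clears Ccl19, Ccl21 and Ccl25, did not pass (7.49 to 14.6 CPM, edgeR adjusted p = 0.0553). Exons of Ackr1 share 361 bases with Cadm3, and those of Ackr4 share 479 with Acad11. The CC receptors Ccr4, Ccr6, Ccr7 and Ccr9, did not pass and stayed at or below 5.69 CPM. Ccl22, a Ccr4 ligand, differed at 0.651 to 4.70 CPM (edgeR adjusted p = 0.0114). Ccl25, a Ccr9 ligand, Ccl27a, a skin chemokine that binds Ccr10, and Xcr1, a receptor of cross-presenting dendritic cells, did not pass (edgeR adjusted p = 0.481, 0.0715 and 0.707).

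Genes that act with the chemokines were counted in the same edgeR test. Of 50 genes of chemokine receptor signalling, 28 (56%) differed between codes, close to the 48.7% of all tested genes. Gnai2, the Gi subunit that these receptors couple to, had 367 to 462 CPM and did not pass (edgeR adjusted p = 0.254), while Rac2, a leukocyte GTPase of migration, had 60.1 to 234 CPM and its lowest mean in R63500 (edgeR adjusted p = 0.00301). Rgs16, which damps Gi signalling, was highest in R63500 and lowest in R62850 (3.77 to 16.9 CPM, edgeR adjusted p = 1.61e-06).

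Of 40 genes that induce chemokines (interleukins, their receptors and NF-kappaB and interferon factors), 33 were tested and 21 (63.6%) called. Over all tested genes the share called was 48.7%. Nfkbiz, a co-activator of IL-17 and NF-kappaB targets, had 148 to 328 CPM with its lowest mean in R62850 (edgeR adjusted p = 0.000124), the code lowest for Cxcl1, Cxcl3 and Cxcl5. Tnf, at 18.4 to 40.9 CPM, also had its lowest mean in R62850 (edgeR adjusted p = 3.00e-05), as did Il1a (0.709 to 9.36 CPM, edgeR adjusted p = 0.000206). Il1b, by contrast, was lowest in R63500 (32.5 to 188 CPM, edgeR adjusted p = 0.000644), the code lowest for Cxcr2. Some other called inducers had other orders, with the lowest mean of Nfkbia in R63496 and of Relb in R63500, and the highest of Cebpb in R62850. Il17a (0 to 3.48 CPM) and Il6 (0.0686 to 12.6 CPM) were not tested. A link between the levels of inducers and of chemokines was not tested.

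Of 22 genes that cleave, shed or present chemokines, 20 were tested and 15 (75%) called, beside 48.7% of all tested genes. Mmp12, a macrophage protease that trims chemokines, had 5.59 to 361 CPM and was highest in R63500 (edgeR adjusted p = 2.76e-08). Mmp7, an epithelial protease that releases syndecan-bound chemokine, had 49.9 to 315 CPM, highest in R62848 and lowest in R63494 (edgeR adjusted p = 2.77e-07). Adam10, a sheddase of Cx3cl1 and Cxcl16, had 194 to 305 CPM and was lowest in R62850 (edgeR adjusted p = 0.00232). Of 24 matched genes for other chemoattractants and their receptors, 21 were tested and 17 (81%) called, beside the same 48.7%. Among them was Fpr1, the formyl peptide receptor of neutrophils, highest in R62848 and lowest in R62850 (0.394 to 12 CPM, edgeR adjusted p = 0.000823). Over the tested genes of a list, the median difference between the highest and lowest code mean was 0.55 log2 units for signalling, 0.56 for inducers, 0.76 for processing and 1.31 for other chemoattractants, against 0.58 for all tested genes.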

How the data were processed

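RNA-seq of 17 mouse bile duct samples was analysed from the table the authors deposited, which holds whole-number, unnormalized read counts per gene and gene length in bases. Per the submitters' processing notes, reads were processed with tools that include edgeR 3.40.2, featureCounts and STAR 2.6.1c, on mm10; no source used here gives the annotation release, the strand setting or the role of each tool. A further 17 columns of per-sample values were not used. No column name matches a sample title, so columns were tied to the bile duct group only and grouped by the code in their names.

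Counts were analysed in R 4.3.3 with edgeR 4.0.16: filterByExpr (15795 genes), TMM factors, log2 CPM with a prior count of 2, and a quasi-likelihood F test of the codes, called at a Benjamini-Hochberg adjusted p below 0.05. Values in CPM are TMM-scaled, and RPKM are the same per kilobase. Alternatives were RLE factors, no filter, DESeq2 1.42.0, limma-voom (limma 3.58.1), leaving out each library or code, and a block on the column number. No 2 libraries agreed within sampling noise (chi-square per degree of freedom at least 3.98). Exon overlaps were read from GENCODE M21, which held all 61 members.

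The members and lists were chosen with earlier results of these data known. Named are the 12 ligands and 8 receptors with the highest median RPKM, the 8 called members with the largest difference between code means, and partners in ligand-receptor pairs as levels; 1 receptor and 1 marker gene are not reported here. Tests of other members (such as Ccl3, Ccl9, Ccl11, Cxcl10, Cxcl17, Cxcr5 and Ackr2) and of list genes were chosen for naming once their values were known.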

Additional observations from a re-analysis of the deposited data

How the results depend on the processing

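The count of members that differed between codes was 32, with 33 under RLE factors, 34 with no filter, 39 with DESeq2 and 32 with limma-voom. Leaving out 1 library gave 29 to 33 members, and leaving out 1 code 24 to 33, the lowest without R62850. Over all tested genes the count was 7692, with 6409 to 8728 under the alternatives, and over the signalling, inducer and processing lists it was 64, with 48 to 69. Members with a median of at least 1 RPKM numbered 42, and 43 or 44 under the alternatives. The median share of variance between codes was 71.4%, with 63.8% to 75.2% when 1 code was left out. Of the adjusted p-values of named members, 10 lost and 2 gained the call when 1 code was left out, and 2 lost and 5 gained it when 1 library was. Ccl7 and Ccl12 fell under the filter in most alternatives and have a value in 9. The planned comparison with deposited FPKM is not reported, since those columns could not be tied to samples beside the counts. With the number at the end of each column name as a replicate block, an alternative chosen after seeing the data, 31 members, 7134 of all genes and 64 list genes were called, and of the named members Ccl8 gained the call (0.0450). Libraries of different codes with the same number did not deviate together (median r 0.0033 over 40 pairs, and 4 of 17 libraries correlated best with their own number), so the numbers were not taken to pair samples. Counts under 10 in a library, as for Ccl2 in R63494_2, leave ratios imprecise.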
